A study of Mus musculus with 6 samples.

Results

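Immediate early genes are transcribed within minutes of a stimulus, without new protein synthesis, and their mRNAs are short-lived. Growth factors, depolarization and stress reach them through MAP kinases and calcium, which act on factors already bound at their promoters. In the intestine they are known to respond to growth signals and damage, and the handling needed to make a suspension of single cells is also known to induce them. The 10 genes described here were taken by name from the deposited count table of 23845 genes: Fos, Fosb, Jun, Junb, Atf3, Egr1, Klf6, Ier2, Dusp1 and Zfp36. All 10 had a row in the table, and all 10 passed the filter on low counts, as did 13935 genes in all.

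The 6 RNA libraries of mouse intestinal epithelium formed 3 groups of 2, in a study of how the number of Neurog3 alleles bears on enteroendocrine progenitors. Neurog3 is the transcription factor that commits gut progenitors to the hormone-secreting lineage. EGFP cells, with 1 Neurog3 allele, came from C57BL6 mice of genotype Neurog3+/-EGFP. EYFP cells, with 2, came from mice of genotype Neurog3+/+EYFP on a mixed background of C57BL6 and CD1. Wild-type cells came from C57BL6 mice, with titles that point to duodenum. Cells that express Neurog3 were obtained by fluorescence-activated sorting. The sources used here do not give the dissociation, the gates, the gut segment of the sorted cells, age, sex, the number of animals or whether the wild-type cells were sorted. Allele number, reporter and strain therefore cannot be told apart between EYFP and EGFP cells. Against wild-type cells, genotype, reporter and the selection of cells that express Neurog3 cannot be told apart, nor can strain for EYFP cells. Nothing says that the 2 libraries of a group came from separate animals, so p-values measure only the spread between these libraries.

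Total counts ranged from 7938352 to 20589680 per library. The summed level of 6 epithelium markers was 10923 and 12253 CPM (counts scaled to library size) in wild-type cells, 7506 and 8216 in EGFP cells, and 5897 and 6059 in EYFP cells. None of the 6 was at 0 in any library. Among them, Krt18 was lowest in wild-type cells, at 390 and 294 CPM, against 1100 and 1139 in EGFP cells and 758 and 755 in EYFP cells. Markers of other cell types also differed between groups. The summed level of 6 enteroendocrine markers was 493 and 555 CPM in wild-type cells, 8739 and 13169 in EGFP cells, and 58835 and 44332 in EYFP cells. Chgb alone made up 47112 and 33078 CPM of the EYFP sums. That of 11 immune markers was 205 and 257 CPM in wild-type cells, 11.7 and 47.7 in EGFP cells, and 244 and 13.6 in EYFP cells, where Lyz2 of macrophages made up 206 CPM of the first library. Between 0 and 3 of the 11 were at 0 counts in a library. Of 9 tested, 6 were lower and 0 higher in both EGFP and EYFP than in wild-type cells (edgeR, adjusted p under 0.05). Over all tested genes 21.9% and 33.5% were lower, and 19.6% and 27.1% higher. The 6 were Ptprc, Cd3e, Cd3g, Cd8a, Itgae and Coro1a, whereas Lyz2, Cd68 and Csf1r did not pass. The sum of 5 endothelial markers was low, at 2.08 and 3.80 CPM in wild-type cells, 7.47 and 6.93 in EGFP cells, and 24.6 and 19.7 in EYFP cells. Between 0 and 2 of the 5 were at 0 counts. These steps were those of Pecam1 and Vwf only. Cdh5 and Kdr were at 0.141 CPM or less in every library. Tek went the other way, at 0.723 and 0.507 CPM in EGFP cells and 0.070 and 0.084 in EYFP cells. Pecam1 of endothelium rose by 2.07 in EYFP against EGFP cells and by 1.06 and 3.14 in EGFP and EYFP against wild-type cells (log2; adjusted p = 0.0023, 0.037 and 0.00012, edgeR). Of these, the call in EGFP against wild-type cells was lost without any 1 library other than wild type 2 (adjusted p of 0.054 to 0.16 for Pecam1). Stromal and neuronal markers summed to 26.1 CPM or less in every library, and Sox10 of glia was at 0 in all 6. The part of these cell types in the results below was not tested. In bulk RNA, fewer cells that express a gene and less of its RNA per cell cannot be told apart.

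The sequences show what these genes have in common outside the measurements. Coordinates are those of the mouse build GRCm38 (mm10), promoters are from RefSeq (GRCm38.p6), and 8 of the 10 genes had a promoter in the table used, each 300 bases long with 250 before the start. The cyclic AMP response element (CRE) binds the CREB and ATF factors through which calcium and cyclic AMP act. Its core TGACG, searched on both strands, was in 5 of the 8 promoters, those of Fos, Fosb, Junb, Atf3 and Dusp1, against 29.6% of the promoters of tested genes. TATAAA, searched on the strand of the gene, was in 2, those of Fos and Junb, against 4.56%. The match in Fos begins 33 bases before the annotated start, and that in Junb at the RefSeq start itself (84978748, minus strand). The GENCODE transcript of Junb starts further downstream, at 84978718, so that its TATAAA lies before that start. The full element TGACGTCA, which contains the core, was in that of Dusp1 alone among the 8, against 3.0%. The next lines give 150 bases upstream of the annotated exons of Fos (chr12:85473740-85473889, plus strand), Junb (chr8:84978749-84978898, minus strand) and Dusp1 (chr17:26508520-26508669, minus strand). They show how the cores stand in genes of different roles, and capitals mark TGACG, TGACGTCA and the TATAAA of Fos.

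Fos promoter: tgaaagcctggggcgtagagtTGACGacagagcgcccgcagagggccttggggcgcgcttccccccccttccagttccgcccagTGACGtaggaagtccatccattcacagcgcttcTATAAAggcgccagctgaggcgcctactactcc

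Junb promoter: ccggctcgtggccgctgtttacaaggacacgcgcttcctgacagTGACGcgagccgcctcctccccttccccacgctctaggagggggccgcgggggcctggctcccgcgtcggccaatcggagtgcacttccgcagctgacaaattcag

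Dusp1 promoter: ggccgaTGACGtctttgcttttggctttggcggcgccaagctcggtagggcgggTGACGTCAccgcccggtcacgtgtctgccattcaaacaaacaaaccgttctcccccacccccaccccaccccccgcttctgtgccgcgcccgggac

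The CArG box binds serum response factor, SRF. It was found on either strand in 1 of the 8 promoters, that of Zfp36, against 1.38% of the promoters of tested genes. The AP-1 site TGANTCA was in 0 of the 8, against 5.40%. Egr1 and Ier2 had no promoter in the table used and were not searched, nor were bases further upstream of the other genes. These counts therefore do not show that a gene lacks either site. The sites of Zfp36 (chr7:28379267-28379296, minus strand) and Atf3 (chr1:191183334-191183363, minus strand) are given because each stands close to the annotated start. That of Zfp36 lies inside the span of a longer annotated transcript, and the match in Atf3 is TGACG read from the other strand. Capitals mark the CArG box and the core.

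Zfp36 site: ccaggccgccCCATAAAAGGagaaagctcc

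Atf3 site: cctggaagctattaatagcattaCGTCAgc

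AU-rich elements in the 3′ UTR mark mRNAs for rapid decay, and the protein encoded by Zfp36 binds them. The pentamer ATTTA occurred 3 or more times in the 3′ UTR of 6 of the 10 genes, against 35.5% of 13225 tested genes with a matched GENCODE M21 transcript. The longer TTATTTATT, which contains the pentamer, was in 3 of the 10, Fos, Dusp1 and Zfp36, against 7.45%. Ier2 had 0 copies of ATTTA. The next lines show 30 bases of 3′ UTR from Fos (chr12:85477100-85477129, plus strand), Dusp1 (chr17:26506157-26506186, minus strand), Zfp36 (chr7:28376958-28376987, minus strand) and Jun (chr4:95049207-95049236, minus strand), with ATTTA in capitals. They show overlapping copies in Fos and Dusp1 and separate copies in the other two.

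Fos 3′ UTR site: ttgtgttttcaATTTATTTAttaagatgga

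Dusp1 3′ UTR site: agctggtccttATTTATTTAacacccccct

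Zfp36 3′ UTR site: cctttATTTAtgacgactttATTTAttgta

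Jun 3′ UTR site: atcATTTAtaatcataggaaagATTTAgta

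The genes were also compact. Jun, Junb and Ier2 have 1 exon each, so that 3 of 10 were single-exon genes, against 2.14% of the matched tested genes. The median genomic span of the 10 transcripts was 3427 bases, against 21978. These are descriptions of the sequence and show neither binding nor decay in these cells.

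Transcripts of all 10 genes were abundant in every library. Summed over the 10, their level was 10173 and 7409 CPM in wild-type libraries 1 and 2, 7843 and 6111 in the EGFP libraries, and 11041 and 12944 in the EYFP libraries. CPM divide each count by a library size that was first adjusted with edgeR's TMM factor. The 2 EYFP libraries stood highest, and the wild-type and EGFP libraries overlapped. Per kilobase of transcript, Fos had the highest mean level over the 6 libraries, 1050 CPM per kb, followed by Jun at 487. Egr1 at 391, Ier2 at 376 and Junb at 369 lay closer together than the libraries of any 1 of them. Zfp36 at 294, Fosb at 258 and Atf3 at 250 followed, with ranges that overlapped, and Dusp1 at 183 and Klf6 at 95.6 were lowest. Fos ranked between 13 and 77 of 20353 genes per kilobase, with the highest ranks, 16 and 13, in the EYFP libraries.

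**Figure D1:**
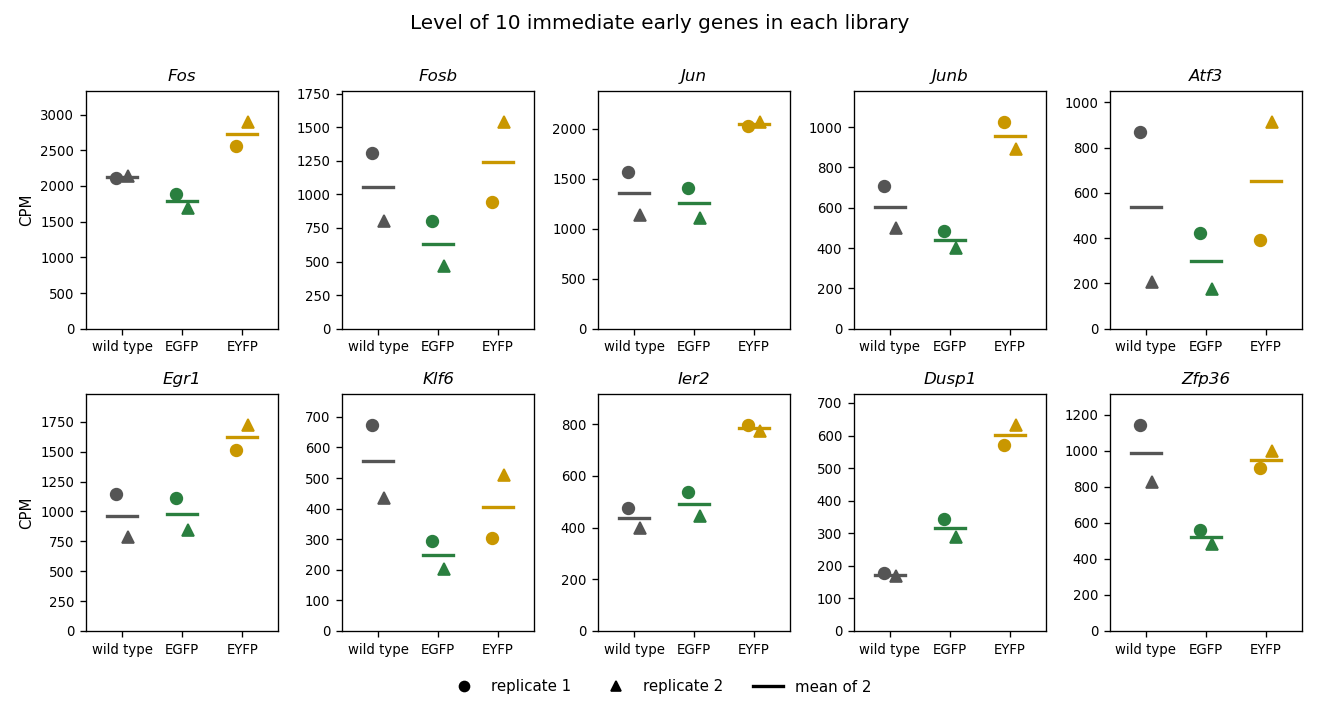
Level of each of the 10 genes in CPM (vertical axes, from 0) in wild-type, EGFP and EYFP cells; circles and triangles are replicates 1 and 2 and bars their means. Both EYFP points lie above both EGFP points for 9 genes, the exception being Atf3, and Dusp1 separates all 3 groups.

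EYFP and EGFP cells, which differ in allele number, reporter and strain, were compared first. Junb, Ier2, Dusp1 and Zfp36 rose in EYFP cells, by 1.12, 0.68, 0.93 and 0.86 on the log2 scale, and none of the 10 fell. That is 4 of 10 higher (edgeR quasi-likelihood test, Benjamini-Hochberg adjusted p under 0.05), against 16.8% of all tested genes higher, 19.4% lower and 36.2% in either direction. At an unadjusted p under 0.05, 8 were higher and 0 lower. The median log2 difference of the 10 was 0.80, against 0.01 over all tested genes. Both EYFP libraries were above both EGFP libraries for 9 of 10, against 37.3% of tested genes, and below them for 0, against 37%. The count of 4 changed as 1 library was left out at a time. Both this count and the number of all tested genes called higher were smaller without an EGFP or EYFP library and larger without a wild-type library. The count was 8 with the DESeq2 Wald test, where 2584 of 15116 genes were higher, and also 8 in the authors' deposited table. No share over all tested genes is given for the unadjusted p or for the authors' table.

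The first 5 genes encode subunits of AP-1, a dimer of basic leucine zipper proteins that binds DNA, or a relative of them. Fos encodes the subunit that must pair with a Jun protein. Its level was 2107 and 2143 CPM in wild-type cells, 1882 and 1696 in EGFP cells, and 2562 and 2892 in EYFP cells. The EYFP libraries were the highest, the EGFP libraries the lowest, and no groups overlapped. The EYFP level differed from that of EGFP cells by 0.61 ± 0.22 (log2, SE; adjusted p = 0.063, edgeR), which did not pass the test. With DESeq2 size factors in the same test it did, at 0.68 and an adjusted p of 0.044. So it did with only the 4 libraries compared (adjusted p = 0.026, edgeR) and with the DESeq2 Wald test (adjusted p = 3.8e-05). With TMM computed without the 50 most abundant genes it did not (adjusted p = 0.064). Without any 1 library the value was 0.51 to 0.74.

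Fosb, a second Fos-family gene, was at 1306 and 801 CPM in wild-type cells, 799 and 468 in EGFP cells, and 941 and 1537 in EYFP cells. The EYFP libraries lay above the EGFP libraries but on both sides of the first wild-type library. The difference between EYFP and EGFP cells, 0.97 ± 0.38 (log2, SE), was as large as that of Dusp1, but its libraries varied more and its adjusted p was 0.087 (edgeR).

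Jun encodes the partner of the Fos proteins. It was at 1569 and 1142 CPM in wild-type cells, 1408 and 1103 in EGFP cells, and 2028 and 2065 in EYFP cells. Both EYFP libraries were above the other 4, and the wild-type and EGFP libraries interleaved. The difference from EGFP cells was 0.71 ± 0.25 (log2, SE; adjusted p = 0.057, edgeR). It passed the test with DESeq2 size factors (0.78, adjusted p = 0.044), but not with TMM computed without the 50 most abundant genes (adjusted p = 0.058). It also passed with only the 4 libraries compared (adjusted p = 0.018, edgeR) and with the DESeq2 Wald test (adjusted p = 0.0024). Without any 1 library the value was 0.54 to 0.95.

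Junb, a Jun relative that can dampen Jun, was at 706 and 498 CPM in wild-type cells, 482 and 402 in EGFP cells, and 1024 and 893 in EYFP cells. No groups overlapped, with EYFP cells highest and EGFP cells lowest. Junb rose by 1.12 ± 0.23 in EYFP against EGFP cells (log2, SE; adjusted p = 0.0080, edgeR). The call was lost without EGFP 2 (0.99, adjusted p = 0.067) and without EYFP 1 (1.01, adjusted p = 0.052).

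Atf3 encodes a stress-induced repressor of the ATF family that can pair with Jun proteins. It was at 868 and 208 CPM in wild-type cells, 424 and 176 in EGFP cells, and 393 and 912 in EYFP cells. Each group had 1 high and 1 low library, and all 3 groups overlapped. Its difference between EYFP and EGFP cells, 1.12 ± 0.87 (log2, SE; adjusted p = 0.37, edgeR), equalled that of Junb in size, with a larger error. Left-out libraries moved it between 0.39 and 1.96.

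The next 2 genes encode zinc-finger transcription factors. Egr1, a growth-factor-responsive activator, was at 1144 and 787 CPM in wild-type cells, 1111 and 842 in EGFP cells, and 1512 and 1728 in EYFP cells. The EYFP libraries were above the other 4, which interleaved. The difference from EGFP cells was 0.73 ± 0.26 (log2, SE; adjusted p = 0.060, edgeR). It passed with DESeq2 size factors (0.80, adjusted p = 0.048) and without either wild-type library (adjusted p = 0.023 and 0.022).

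Klf6, a Krüppel-like factor, was at 675 and 436 CPM in wild-type cells, 296 and 203 in EGFP cells, and 305 and 509 in EYFP cells. The EGFP libraries were the lowest, and the EYFP libraries overlapped with wild type. The first EYFP library was only just above the first EGFP library, and the difference between these groups was 0.71 ± 0.33 (log2, SE; adjusted p = 0.14, edgeR).

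Ier2, an early response gene for a nuclear protein, was at 474 and 400 CPM in wild-type cells, 538 and 446 in EGFP cells, and 799 and 775 in EYFP cells. The EYFP libraries were above the other 4 and close to each other. Ier2 rose by 0.68 ± 0.19 in EYFP against EGFP cells (log2, SE; adjusted p = 0.025, edgeR). Leaving out any 1 of these 4 libraries ended the call, with adjusted p of 0.074 without EGFP 1, 0.18 without EGFP 2, 0.11 without EYFP 1 and 0.094 without EYFP 2.

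The last 2 genes act as brakes. Dusp1 encodes a phosphatase that switches off MAP kinases. It was at 177 and 169 CPM in wild-type cells, 342 and 289 in EGFP cells, and 571 and 634 in EYFP cells. The 3 groups were in steps without overlap, and replicates were close. Dusp1 rose by 0.93 ± 0.16 in EYFP against EGFP cells (log2, SE; adjusted p = 0.0044, edgeR). It kept its call in this comparison without any 1 of the 6 libraries, with differences of 0.81 to 1.12 and adjusted p of 0.0037 to 0.047.

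Zfp36 encodes tristetraprolin, the protein that binds AU-rich elements and promotes decay of the mRNA. It was at 1146 and 826 CPM in wild-type cells, 561 and 485 in EGFP cells, and 906 and 999 in EYFP cells. The EGFP libraries were the lowest, and the EYFP and wild-type libraries overlapped. Zfp36 rose by 0.86 ± 0.22 in EYFP against EGFP cells (log2, SE; adjusted p = 0.019, edgeR). Leaving out any 1 of these 4 libraries ended the call, with adjusted p of 0.091 without EGFP 1, 0.13 without EGFP 2, 0.066 without EYFP 1 and 0.1 without EYFP 2.

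**Figure D2:**
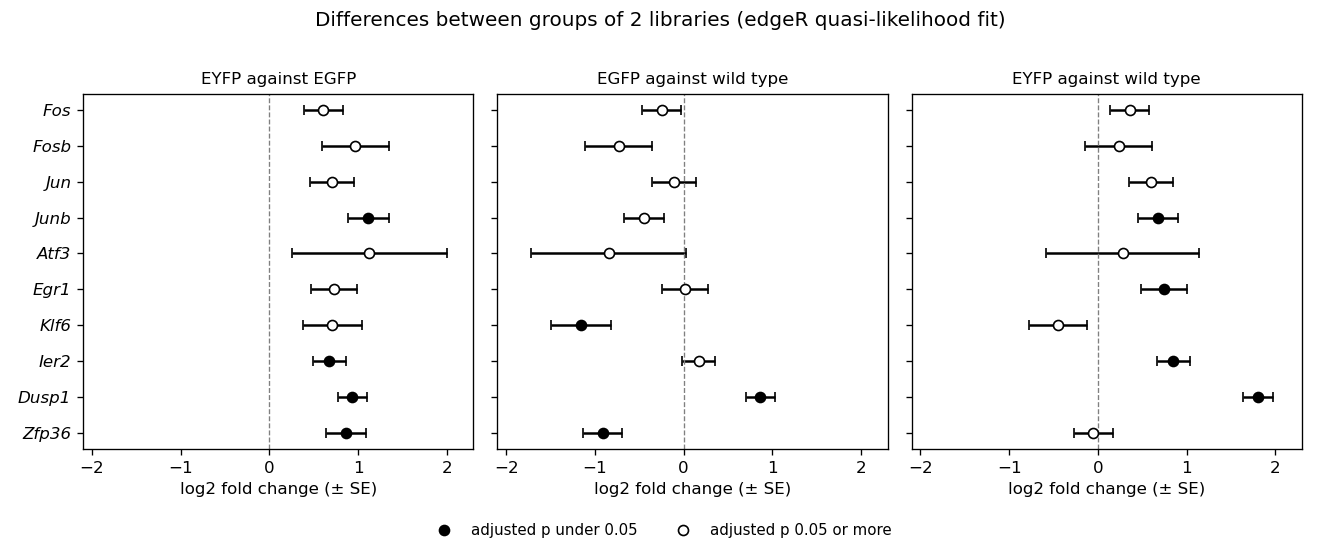
Log2 fold changes of the 10 genes (horizontal axes) with bars of 1 SE in 3 comparisons of 2 against 2 libraries; filled points pass an adjusted p of 0.05 in edgeR's quasi-likelihood test. All 10 points lie right of 0 for EYFP against EGFP cells, 4 of them filled, whereas EGFP cells against wild type have Dusp1 filled on the right and Zfp36 and Klf6 on the left.

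EGFP cells were then compared with wild-type cells. Dusp1 rose and Zfp36 and Klf6 fell in EGFP cells, so that 1 of 10 was higher, against 19.6% of tested genes, and 2 were lower, against 21.9% (edgeR, adjusted p under 0.05; 41.5% of tested genes in either direction). The median log2 difference of the 10 was -0.35, against 0.00 over all tested genes. Both EGFP libraries were above both wild-type libraries for Dusp1 alone, against 35% of tested genes, and below them for Fos, Fosb, Junb, Zfp36 and Klf6, against 36.2%. Jun, Egr1, Ier2 and Atf3 overlapped. Both comparisons with wild-type cells share those 2 libraries, and both comparisons of EGFP cells share the EGFP libraries, so the 3 sets of values are not independent.

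Dusp1 was 0.87 ± 0.17 higher in EGFP than in wild-type cells (log2, SE; adjusted p = 0.0042, edgeR), and kept its call without any 1 of the 6 libraries (adjusted p of 0.0090 to 0.032). Zfp36 fell by 0.91 on the log2 scale (SE 0.22, adjusted p = 0.012, edgeR). It lost its call without EGFP 1 (adjusted p = 0.091) or EGFP 2 (adjusted p = 0.11). Klf6 fell by 1.16 (SE 0.34, adjusted p = 0.030, edgeR), and lost its call without EGFP 1 (-1.36, adjusted p = 0.077), EGFP 2 (-0.91, adjusted p = 0.16) or wild type 1 (-0.81, adjusted p = 0.15). For Zfp36 and Klf6, both EGFP libraries nonetheless lay below both wild-type libraries, by the levels given above.

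Of the genes that did not pass, Fosb differed by -0.73, Junb by -0.44 and Fos by -0.25 on the log2 scale between EGFP and wild-type cells, with adjusted p of 0.17, 0.16 and 0.41 (edgeR). With 1 library left out at a time the value of Junb ranged from -0.67, without wild type 2, to -0.17, without wild type 1. Jun, Egr1 and Ier2 differed by -0.11, 0.02 and 0.17 with adjusted p of 0.75, 0.97 and 0.50 (edgeR). Atf3 differed by -0.84 (adjusted p = 0.50, edgeR), and the sign of this value turned, to 0.52, without wild type 1. The count of lower genes changed as 1 library was left out at a time, and so did the number of all tested genes called lower.

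EYFP cells were compared with wild-type cells last. Junb, Egr1, Ier2 and Dusp1 rose in EYFP cells and none of the 10 fell, with 4 of 10 higher, against 27.1% of tested genes, and 0 lower, against 33.5% (edgeR, adjusted p under 0.05; 60.6% in either direction). At an unadjusted p under 0.05, for which no share over all tested genes is given, 5 were higher and 0 lower. The DESeq2 Wald test called 6 higher and 0 lower, beside 4118 higher and 4134 lower of 15473 genes. The median log2 difference was 0.48 for the 10 and -0.12 over all tested genes; with DESeq2 size factors the latter was -0.01. Both EYFP libraries were above both wild-type libraries for Fos, Jun, Junb, Egr1, Ier2 and Dusp1, 6 of 10, against 37% of tested genes, and below them for 0, against 45%. The count of 4 changed as 1 library was left out at a time, and so did the number of all tested genes called higher.

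Dusp1 rose by 1.80 ± 0.17 in EYFP against wild-type cells (log2, SE; adjusted p = 7.0e-05, edgeR), which was the largest difference of the 10 genes in any comparison. Without any 1 library its value was 1.72 to 1.96. Ier2 rose by 0.85 ± 0.19 (log2, SE; adjusted p = 0.0050, edgeR) and also kept its call without any 1 library (adjusted p of 0.0051 to 0.031).

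Junb rose by 0.67 ± 0.23 in EYFP against wild-type cells (log2, SE; adjusted p = 0.033, edgeR). It lost the call without EGFP 2 (adjusted p = 0.058), EYFP 1 (adjusted p = 0.15), EYFP 2 (adjusted p = 0.067) or wild type 2 (0.44, adjusted p = 0.098). Egr1 rose by 0.75 ± 0.26 (log2, SE; adjusted p = 0.036, edgeR). It lost the call without the same libraries: EGFP 2 (adjusted p = 0.058), EYFP 1 (adjusted p = 0.077), EYFP 2 (adjusted p = 0.15) or wild type 2 (0.50, adjusted p = 0.11).

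Jun differed by 0.59 ± 0.25 between EYFP and wild-type cells (log2, SE, adjusted p = 0.068, edgeR) and passed with DESeq2 size factors (0.71, adjusted p = 0.039). Without any 1 library the value of Jun was 0.38 to 0.84. Fos differed by 0.36 with an adjusted p of 0.19, Fosb by 0.23 with 0.61 and Atf3 by 0.28 with 0.80 (edgeR). Zfp36 and Klf6 differed by -0.05 and -0.45, with adjusted p of 0.85 and 0.28 (edgeR). Dusp1 and Zfp36, the pair of genes that act as brakes, thus had different orders of their levels: wild type, EGFP, EYFP from low to high for Dusp1, and EGFP lowest with the other groups overlapping for Zfp36.

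The replicates of each group were compared gene by gene. Replicate 1 was above replicate 2 for 10 of 10 genes in EGFP cells and 9 of 10 in wild-type cells, and replicate 2 was above replicate 1 for 8 of 10 in EYFP cells. Among 1975 genes at 100 CPM or more, replicate 1 was higher for 54.1% in EGFP, 40.4% in wild-type and 58.8% in EYFP cells. The median fold between replicates was 1.24 in EGFP, 1.40 in wild-type and 1.14 in EYFP cells, against 1.11, 1.17 and 1.10 over those 1975 genes. Some single genes were below those medians, such as Fos and Dusp1 in wild-type cells and Jun and Ier2 in EYFP cells. Replicate numbers only name libraries and give no order.

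Atf3, Fosb and Klf6 varied most between replicates. Atf3 differed 2.41-fold between the EGFP libraries, 2.32-fold between the EYFP libraries and 4.17-fold between the wild-type libraries. Fosb differed by 1.71-, 1.63- and 1.63-fold and Klf6 by 1.46-, 1.67- and 1.55-fold in the same order. All 3 genes were higher in EGFP 1, EYFP 2 and wild type 1. Fos varied least in EGFP and wild-type cells, by 1.11- and 1.02-fold.

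**Figure D3:**
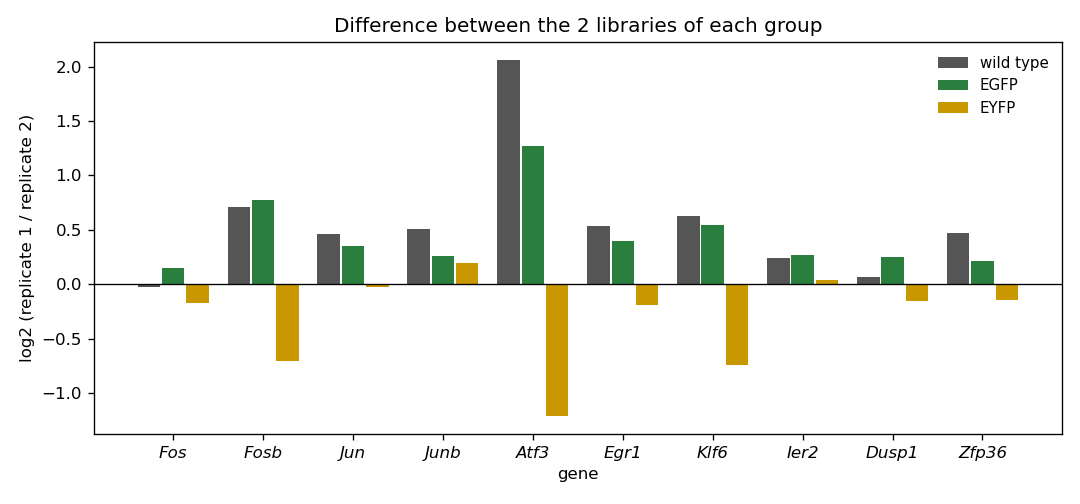
Log2 ratio of replicate 1 to replicate 2 (vertical axis) for each of the 10 genes (horizontal axis) in wild-type, EGFP and EYFP cells, 1 bar per group and no error, since each bar is 1 pair of libraries. Bars of Atf3 are the longest in all 3 groups, and bars of Fosb and Klf6 point up in wild-type and EGFP cells and down in EYFP cells.

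Across the 6 libraries the levels of Jun and Egr1 had a Pearson correlation of 0.98, Jun and Junb 0.95, Egr1 and Ier2 0.95 and Fosb and Atf3 0.92. Dusp1 stood apart from Klf6 (-0.25) and Zfp36 (0.02). These 6 points share the 3 groups, so the correlations are descriptions. Of 9999 genes with a mean of 10 CPM or more, those most like the mean standardized profile of the 10 were Dnajb1 (0.99), Zfr, Zfp326, Mbtd1 and Lancl2. Those most like Fos were Suco (0.99), Pramef8, Wac, Senp7 and Nckap1. Dnajb1, a heat-shock co-chaperone, was at 205 and 127 CPM in wild-type cells, 160 and 97.9 in EGFP cells, and 234 and 279 in EYFP cells.

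The wider immediate early response was followed in a list of 35 tested genes outside the 10. Between EYFP and EGFP cells 10 rose and 4 fell, beside 16.8% higher and 19.4% lower over all tested genes, with a median log2 difference of 0.69. Arc, Egr3, Egr4, Klf2, Nr4a3, Btg2, Gadd45a, Rhob, Sgk1 and Gem rose, and Klf4, Myc, Bhlhe40 and Ier5 fell. Against wild type, 6 rose and 5 fell in EGFP cells, beside 19.6% and 21.9%, with a median of -0.25. In EYFP cells 12 rose and 6 fell, beside 27.1% and 33.5%, with a median of 0.16.

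Arc, known in neurons as an activity-induced gene, was at 10.2 and 8.20 CPM in wild-type cells, 68.3 and 67.1 in EGFP cells, and 728 and 758 in EYFP cells. The groups were far apart and replicates close, in the same order as for Dusp1. Arc rose by 3.46 ± 0.17 in EYFP against EGFP cells (log2, SE; adjusted p = 8.6e-05, edgeR), by 2.88 ± 0.17 in EGFP against wild-type cells (adjusted p = 3.3e-05) and by 6.34 ± 0.20 in EYFP against wild-type cells (adjusted p = 2.4e-06). All 3 calls held without any 1 library.

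Klf2, another Krüppel-like factor, was at 26.6 and 22.8 CPM in wild-type cells, 65.2 and 54.7 in EGFP cells, and 218 and 239 in EYFP cells. It stood in the same steps without overlap. Klf2 rose by 1.93 ± 0.16 in EYFP against EGFP cells (log2, SE; adjusted p = 0.00027, edgeR). It is described here after its values were seen, as are Rhob and Gadd45a below.

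Egr3, a relative of Egr1, was at 2.25 and 0.723 CPM in wild-type cells, 8.32 and 5.92 in EGFP cells, and 31.3 and 75.2 in EYFP cells. Groups did not overlap, at levels far below those of Egr1. Egr3 rose by 2.91 ± 0.57 in EYFP against EGFP cells (log2, SE; adjusted p = 0.011, edgeR), and lost the call without EGFP 1 (adjusted p = 0.064) or EGFP 2 (adjusted p = 0.081). It rose by 2.31 ± 0.67 in EGFP against wild-type cells (adjusted p = 0.035), a call lost without EGFP 1 (adjusted p = 0.13), EGFP 2 (adjusted p = 0.09) or wild type 2 (1.64, adjusted p = 0.19). Against wild type, EYFP cells were 5.22 ± 0.66 higher (adjusted p = 0.00084).

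Egr2 varied widely within groups, at 55.8 and 10.2 CPM in wild-type cells, 22.7 and 11.3 in EGFP cells, and 35.6 and 71.9 in EYFP cells. Both EYFP libraries were above both EGFP libraries, and the wild-type libraries overlapped with each of the other groups. It passed in no comparison, with adjusted p of 0.25, 0.48 and 0.54 for EYFP against EGFP, EGFP against wild type and EYFP against wild type (edgeR). Nr4a1, a nuclear receptor of the early response, was at 102 and 29.0 CPM in wild-type cells, 98.6 and 56.6 in EGFP cells, and 173 and 388 in EYFP cells. Both EYFP libraries were above the other 4, yet adjusted p was 0.14 against EGFP and 0.076 against wild-type cells (edgeR).

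Egr4 and Nr4a3 rest on few counts. Egr4 was at 0.25 and 0 CPM in wild-type cells, 1.81 and 0.338 in EGFP cells, and 7.46 and 10.3 in EYFP cells. Its ratio of EYFP to wild-type levels was 83.7, with an exact 95% interval of 28.3 to 409 that covers counting error only (229 against 3 counts; adjusted p = 0.0016, edgeR). Without wild type 1 the wild-type group was at 0, and EYFP cells were at least 48.5-fold higher against a floor of 3 counts; without wild type 2 the ratio was 35.1. Egr4 rose by 3.13 ± 0.80 (log2, SE; adjusted p = 0.022, edgeR) in EYFP against EGFP cells. That call was lost without EGFP 2 (adjusted p = 0.075), EYFP 1 (adjusted p = 0.056) or EYFP 2 (adjusted p = 0.085), and the value was 4.74 without EGFP 1.

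Nr4a3 was at 3.16 and 0.301 CPM in wild-type cells, 0.241 and 0 in EGFP cells, and 5.35 and 4.29 in EYFP cells. Its ratio of EYFP to EGFP levels was 49.0, with an exact 95% interval of 13.3 to 409 (127 against 2 counts; adjusted p = 0.026, edgeR). Leaving out any 1 of these 4 libraries ended the call: adjusted p was 0.08 without EGFP 1, 0.13 without EGFP 2, 0.078 without EYFP 1 and 0.065 without EYFP 2. The ratio was at least 19.2 without EGFP 1, which left EGFP cells at 0, and 20.2 without EGFP 2.

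Btg2, an antiproliferative early gene, was at 651 and 479 CPM in wild-type cells, 637 and 599 in EGFP cells, and 1328 and 1603 in EYFP cells. The wild-type and EGFP libraries interleaved, as for Jun, Egr1 and Atf3. Btg2 rose by 1.25 ± 0.22 in EYFP against EGFP cells (log2, SE; adjusted p = 0.0047, edgeR), with an adjusted p of 0.051 without EGFP 1, and by 1.38 ± 0.22 against wild type (adjusted p = 0.0012). Rhob, a small GTPase, rose by 1.42 ± 0.19 and Gadd45a, a DNA-damage response gene, by 1.38 ± 0.14 in EYFP against EGFP cells (log2, SE; adjusted p = 0.0014 and 0.00061, edgeR).

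Sgk1, a serum- and glucocorticoid-induced kinase, was at 56.8 and 90.9 CPM in wild-type cells, 12.5 and 8.45 in EGFP cells, and 33.9 and 48.4 in EYFP cells. The EGFP libraries were lowest, as for Zfp36 and Klf6, and no groups overlapped. Sgk1 fell by 2.83 in EGFP against wild-type cells (log2, SE 0.33; adjusted p = 0.00064, edgeR) and rose by 1.98 ± 0.32 in EYFP against EGFP cells (adjusted p = 0.0042). It fell by 0.85 in EYFP against wild-type cells (SE 0.30; adjusted p = 0.042, edgeR), a call lost without EGFP 1 (-0.68, adjusted p = 0.079), EYFP 1 (-0.61, adjusted p = 0.19) or wild type 2 (-0.47, adjusted p = 0.21).

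Some early genes went the other way. Myc, the growth-promoting factor, was at 34.6 and 39.2 CPM in wild-type cells, 55.8 and 38.3 in EGFP cells, and 13.4 and 16.8 in EYFP cells. Both EYFP libraries were below the other 4, and Myc fell by 1.64 in EYFP against EGFP cells (log2, SE 0.23; adjusted p = 0.0017, edgeR) and fell by 1.29 against wild type (SE 0.22; adjusted p = 0.0016). Klf4, a factor of differentiated epithelium, was at 238 and 360 CPM in wild-type cells, 471 and 508 in EGFP cells, and 150 and 277 in EYFP cells. It fell by 1.20 in EYFP against EGFP cells (log2, SE 0.32; adjusted p = 0.027, edgeR), a call lost without EGFP 1 (adjusted p = 0.11), EGFP 2 (adjusted p = 0.098) or EYFP 1 (-0.82, adjusted p = 0.098).

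**Figure D4:**
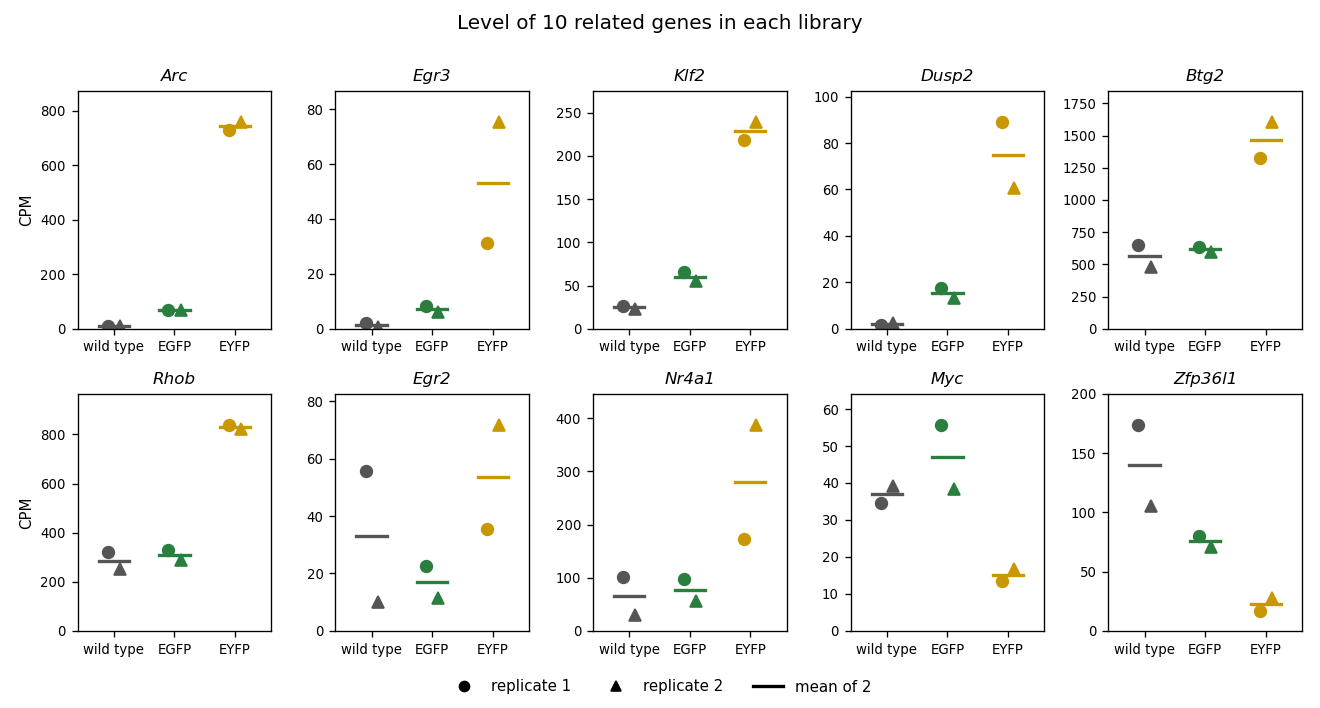
Level in CPM (vertical axes, from 0) of 10 related genes in wild-type, EGFP and EYFP cells, marked as in the plot of the 10 genes. Arc, Egr3, Klf2 and Dusp2 rise in 3 steps, Btg2 and Rhob are high in EYFP cells alone, Egr2 and Nr4a1 spread within groups, and Myc and Zfp36l1 are lowest in EYFP cells; panels were chosen after the values were seen.

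Other basic leucine zipper factors were followed in a list of 17 tested genes. In EYFP against EGFP cells 1 rose and 1 fell, beside 16.8% higher and 19.4% lower over all tested genes (edgeR). In EGFP against wild-type cells 0 rose and 7 fell, beside 19.6% and 21.9%, and in EYFP against wild-type cells 2 rose and 5 fell, beside 27.1% and 33.5%. The count of 0 was also 0 at an unadjusted p under 0.05 and with the DESeq2 Wald test. Jund, the Jun-family gene expressed without stimulation, was at 570 and 330 CPM in wild-type cells, 363 and 258 in EGFP cells, and 553 and 461 in EYFP cells, and passed in no comparison (adjusted p of 0.099, 0.19 and 0.63, edgeR). Both EYFP libraries of Jund were above both EGFP libraries, as for Jun.

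Fosl2 was at 328 and 163 CPM in wild-type cells, 96.9 and 84.3 in EGFP cells, and 39.6 and 66.7 in EYFP cells, an order opposite to that of Fos in EYFP cells. It fell by 2.21 in EYFP against wild-type cells (log2, SE 0.40; adjusted p = 0.0037, edgeR). In EGFP against wild-type cells it fell by 1.44 (SE 0.39; adjusted p = 0.027, edgeR), a call lost without EGFP 1 (adjusted p = 0.13), EGFP 2 (adjusted p = 0.14) or wild type 1 (-0.85, adjusted p = 0.084). Fosl1 was at 11.2 CPM in wild type 1 and at 3.45 CPM or less in the other 5 libraries, with adjusted p of 0.49, 0.23 and 0.47 in the 3 comparisons (edgeR).

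Maf, a large Maf factor, fell in both comparisons with wild-type cells. It was at 144 and 278 CPM in wild-type cells, 6.27 and 5.41 in EGFP cells, and 1.27 and 2.94 in EYFP cells. It fell by 5.18 in EGFP (log2, SE 0.46; adjusted p = 0.00038, edgeR) and fell by 6.67 in EYFP against wild-type cells (SE 0.51; adjusted p = 9.7e-05). Of the immune markers given above, 6 of 9 tested were also higher in wild-type than in EGFP and EYFP cells. The part of immune cells was not tested. Between EYFP and EGFP cells, Atf2 rose by 0.82 ± 0.13 (adjusted p = 0.0032, edgeR) and Batf2 fell by 1.83 (SE 0.36; adjusted p = 0.0069, edgeR; adjusted p = 0.051 without EYFP 1).

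MAP kinase feedback genes, the class of Dusp1, had 5 of 13 higher and 2 lower in EYFP against EGFP cells, beside 16.8% higher and 19.4% lower over all tested genes (edgeR). In EGFP against wild-type cells 1 rose and 1 fell, beside 19.6% and 21.9%, and in EYFP against wild-type cells 5 rose and 1 fell, beside 27.1% and 33.5%. Dusp2, another MAP kinase phosphatase, was at 1.75 and 2.41 CPM in wild-type cells, 17.7 and 13.4 in EGFP cells, and 88.9 and 60.6 in EYFP cells. Its groups were in the steps of Dusp1, at lower levels, and it rose by 2.27 ± 0.25, 2.87 ± 0.29 and 5.14 ± 0.30 in EYFP against EGFP, EGFP against wild type and EYFP against wild type (log2, SE; adjusted p = 0.00074, 0.00024 and 9.9e-06, edgeR). These calls held without any 1 library.

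Dusp6, the phosphatase for ERK, did not follow Dusp1. It was at 107 and 135 CPM in wild-type cells, 50.3 and 47.6 in EGFP cells, and 77.9 and 88.0 in EYFP cells, with the EGFP libraries lowest and no overlap. It fell by 1.3 in EGFP against wild-type cells (log2, SE 0.16; adjusted p = 0.00053, edgeR) and rose by 0.76 ± 0.16 in EYFP against EGFP cells (adjusted p = 0.0089). The latter call was lost without EGFP 2 (adjusted p = 0.056) or EYFP 2 (adjusted p = 0.06). It fell by 0.54 in EYFP against wild-type cells (SE 0.16; adjusted p = 0.018, edgeR), a call lost without EGFP 1 (adjusted p = 0.083), EYFP 1 (adjusted p = 0.12) or wild type 2 (-0.36, adjusted p = 0.086).

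Spry4, an inhibitor of receptor tyrosine kinase signalling, was at 0.416 and 1.57 CPM in wild-type cells, 2.17 and 2.96 in EGFP cells, and 8.31 and 9.25 in EYFP cells. It rose by 1.76 ± 0.50 in EYFP against EGFP cells (log2, SE; adjusted p = 0.029, edgeR) and by 3.08 ± 0.53 against wild type (adjusted p = 0.0016). The former call was lost without any 1 of the 4 libraries, with adjusted p of 0.14 without EGFP 1, 0.082 without EGFP 2, 0.083 without EYFP 1 and 0.1 without EYFP 2.

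Proteins that bind AU-rich mRNAs include 2 relatives of Zfp36. Of 7 tested, 0 rose and 2 fell in EYFP against EGFP cells, beside 16.8% higher and 19.4% lower over all tested genes (edgeR). In EGFP against wild-type cells 1 rose and 1 fell, beside 19.6% and 21.9%, and in EYFP against wild-type cells 1 rose and 3 fell, beside 27.1% and 33.5%. The 0 was also 0 at an unadjusted p under 0.05 and with the DESeq2 Wald test. Zfp36l1 was at 174 and 106 CPM in wild-type cells, 80.2 and 71.2 in EGFP cells, and 17.0 and 27.7 in EYFP cells. It stood in downward steps without overlap. As for Zfp36, both EGFP libraries were below both wild-type libraries, but the EYFP libraries of Zfp36l1 were below those of EGFP cells, where those of Zfp36 were above. Zfp36l1 fell by 1.76 in EYFP against EGFP cells (log2, SE 0.31; adjusted p = 0.0067, edgeR; adjusted p = 0.061 without EGFP 1) and fell by 2.65 against wild type (SE 0.32; adjusted p = 0.00049).

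Zfp36l2 was at 321 and 270 CPM in wild-type cells, 166 and 138 in EGFP cells, and 87.1 and 98 in EYFP cells, again in downward steps. It fell by 0.71 in EYFP against EGFP cells (log2, SE 0.16; adjusted p = 0.013, edgeR), a call lost without EGFP 1 (adjusted p = 0.15) or EYFP 1 (adjusted p = 0.093). It fell by 0.96 in EGFP (adjusted p = 0.0025, edgeR) and fell by 1.67 in EYFP against wild-type cells (adjusted p = 9.3e-05). Tia1, which binds AU-rich mRNA in stress granules, rose by 0.59 ± 0.15 in EGFP against wild-type cells (log2, SE; adjusted p = 0.016, edgeR), a call lost without EGFP 1 (adjusted p = 0.072) or wild type 2 (adjusted p = 0.068).

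Upstream of these genes stand kinases and SRF. Of 21 tested, 5 rose and 1 fell in EYFP against EGFP cells, beside 16.8% higher and 19.4% lower over all tested genes (edgeR). In EGFP against wild-type cells 3 rose and 6 fell, beside 19.6% and 21.9%, and in EYFP against wild-type cells 6 rose and 8 fell, beside 27.1% and 33.5%. Srf, whose protein binds the CArG box, was at 145 and 64.3 CPM in wild-type cells, 90.9 and 63.5 in EGFP cells, and 112 and 163 in EYFP cells. It was high in wild type 1, EGFP 1 and EYFP 2, the libraries in which Atf3 was high, and passed in no comparison (adjusted p of 0.17, 0.45 and 0.44, edgeR).

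Braf, a kinase that feeds ERK, was at 21.6 and 21.8 CPM in wild-type cells, 34.2 and 33.7 in EGFP cells, and 64.7 and 70.6 in EYFP cells. It rose by 0.99 ± 0.14 in EYFP against EGFP cells (log2, SE; adjusted p = 0.0017, edgeR) and by 1.64 ± 0.14 against wild type (adjusted p = 4.5e-05). Egfr, a growth factor receptor, rose by 0.98 ± 0.13 in EYFP against EGFP cells (adjusted p = 0.0014, edgeR). Rps6ka5 and Map2k2, kinases of the MAP kinase route, differed by -1.45 and -1.14 in EGFP against wild-type cells, and so fell (log2, SE 0.27 and 0.19; adjusted p = 0.0034 and 0.0020, edgeR). Rps6ka5 fell by 1.37 in EYFP against wild-type cells (SE 0.26; adjusted p = 0.0025).

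Heat-shock genes, a further class that handling of cells is known to induce, were measured beside them. Of 15 tested, 1 rose and 3 fell in EYFP against EGFP cells, beside 16.8% higher and 19.4% lower over all tested genes (edgeR). In EGFP against wild-type cells 1 rose and 1 fell, beside 19.6% and 21.9%, and in EYFP against wild-type cells 2 rose and 4 fell, beside 27.1% and 33.5%. Hspa1a, an inducible HSP70 gene, was at 177 and 49.1 CPM in wild-type cells, 74.2 and 17.7 in EGFP cells, and 148 and 80.4 in EYFP cells. Its near-identical copy Hspa1b was at 342 and 96.4 CPM in wild-type cells, 124 and 22.7 in EGFP cells, and 190 and 95.7 in EYFP cells. Both were higher in replicate 1 of every group, in EYFP cells the library in which Atf3, Fosb and Klf6 were lower. Reads of the copies may have been divided between them, and neither passed in any comparison, with adjusted p of 0.34 to 0.98 (edgeR).

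Dnajb1 rose by 0.99 ± 0.31 in EYFP against EGFP cells (log2, SE; adjusted p = 0.043, edgeR), a call lost without EGFP 2 (0.68, adjusted p = 0.17), EYFP 1 (adjusted p = 0.089) or EYFP 2 (adjusted p = 0.16). Hspd1, the mitochondrial chaperonin, fell by 1.0 in the same comparison (SE 0.25; adjusted p = 0.018, edgeR), a call lost without EGFP 1 (-0.72, adjusted p = 0.18), EYFP 1 (adjusted p = 0.085) or EYFP 2 (adjusted p = 0.092). Hspb1, a small heat-shock protein, was at 0.915 and 0.362 CPM in wild-type cells, 3.86 and 16.6 in EGFP cells, and 10.8 and 24.1 in EYFP cells. It rose by 4.08 ± 0.95 in EGFP and 4.82 ± 0.94 in EYFP against wild-type cells (log2, SE; adjusted p = 0.017 and 0.0057, edgeR). The former value was 2.64 without EGFP 2, and its call was lost without wild type 1 (adjusted p = 0.074) or wild type 2 (adjusted p = 0.13), as was the latter without wild type 2 (adjusted p = 0.057).

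Dnajb4 was at 42.6 and 23.3 CPM in wild-type cells, 7.35 and 7.10 in EGFP cells, and 4.44 and 9.50 in EYFP cells. It fell by 2.19 in EGFP (log2, SE 0.43; adjusted p = 0.0063, edgeR) and fell by 2.25 in EYFP against wild-type cells (SE 0.42; adjusted p = 0.0033). The former call was lost without EGFP 1 (adjusted p = 0.061) or EGFP 2 (adjusted p = 0.054).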

How the data were processed

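Total RNA was measured by RNA-seq (RNeasy Micro, TruSeq RNA, single-end HiSeq2000 reads, per the labels' protocols). The submitters' processing notes name RSEM 1.3.1, Bowtie2, FastQC 0.11.8 and DESeq2 1.26.0, with the mm10 build and no settings. The authors deposited estimated counts, 1 value per gene and library, not all whole. The authors' deposited table of comparisons also holds a signal per library, a linear fold and an adjusted p-value; only its p-values are counted here. EYFP columns carry EGFP and the word addon in both tables and were matched by title.

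Counts were rounded, filtered with filterByExpr, scaled by TMM and tested with edgeR 4.0.16 (R 4.3.3, robust quasi-likelihood F test) in 1 model of 3 group means over 6 libraries, leaving 3 residual degrees of freedom. P-values were adjusted over 13935 genes (Benjamini-Hochberg). The SE was derived from F. Simulated counts were used to test the script. Alternatives were DESeq2 1.42.0 (size factors, Wald test), a fold threshold of 2, the omission of single libraries, TMM computed after removal of the 50 most abundant genes, unfiltered genes, a minimum of 10 counts, the replicate block and a fit of only the libraries compared; a library left alone in its group was assumed to vary like the others. All 10 genes are named, with a set of related genes, the 2 past the test with the largest difference per related list, and the 5 with the most similar profile. A result that this rule names is not reported here. The genes and lists were chosen with earlier results of these data known. Of 169 listed symbols, 166 had a row.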

Additional observations from a re-analysis of the deposited data

How the results depend on the processing

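None of the 10 genes was called lower in either EYFP comparison under any alternative run. Of the values of single genes under all alternatives, 361 kept their side of the threshold, 27 gained a call and 32 lost one. In EYFP against EGFP cells 4 genes were higher, beside 2343 of all 13935 tested. With DESeq2 size factors 7 were higher, beside 2696, and with the DESeq2 Wald test 8, beside 2584 of 15116. With only the 4 libraries compared 7 were higher, beside 2717 of 13472, and with a fold of at least 2 it was 1, beside 1488. Leaving out 1 library changed the count, as described above. Of EGFP against wild type, 1 was higher and 2 lower; with a fold of at least 2 these were 0 and 1, and 0 to 3 were lower without 1 library. Over all tested genes, 2733 were higher and 3046 lower in EGFP against wild type, and 2055 and 1810 with a fold of at least 2. The number of all tested genes called lower also changed without 1 library. In EYFP against wild type 4 were higher, and 1 with a fold of at least 2, beside 3778 and 2851 of all tested genes. The count of 4 also changed without 1 library. Over the 13935 tested genes, correlations of replicate differences between groups were 0.022, 0.096 and 0.014. Each rests on 1 pair of libraries per group, at all levels of expression, and cannot decide whether same-numbered libraries are paired. Hspa1a, Hspa1b and Hsph1 were higher in replicate 1 of every group, whereas Dnajb1 and Hspb1 were not. With the replicate block 7 were higher in EYFP against EGFP cells, beside 2512 of all tested genes. In EGFP against wild type 1 was lower, beside 3155, and Klf6 had an adjusted p of 0.052 (edgeR). In EYFP against wild type 5 were higher, beside 3850. Precision is limited by 2 libraries a group, with a biological coefficient of variation of 19.8% over all tested genes. The causes of these changes were not tested.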
